A study of Homo sapiens with 2 samples.

Results

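The minus strand of the mitochondrial chromosome was examined in RNA bisulfite sequencing (BS-Seq) of 2 human lines, MCF10A, derived from normal mammary epithelium, and the breast cancer line MDA-MB-468. There was 1 library from each line and no replicate. All minus-strand cytosines of that chromosome with a coverage of at least 10 reads were taken, 1109 of the 1648248 covered cytosines of the MCF10A library and 879 of the 1520418 of the MDA-MB-468 library. They were divided by position into ND6 (32 sites in MCF10A against 38 in MDA-MB-468) and all other positions (1077 and 841 sites). The poly(A)-selected RNA of each line had been treated with bisulfite at 60 degrees for 8 hours, which turns unmodified cytosine into uracil and leaves 5-methylcytosine (m5C) unconverted. The methylation ratio of a site is the number of unconverted reads over all reads at that cytosine. Both are established cell lines, and the labels name no other treatment.

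Human mitochondrial DNA is transcribed from both strands into long precursors, from which the tRNAs are cut out. Most messages and both rRNAs are read from one strand, while ND6, a membrane subunit of respiratory complex I, and a few tRNAs are read from the other. Transcription of that second strand starts in the control region and runs past many genes in antisense direction, giving RNA that is mostly degraded. The ND6 message is known to carry no poly(A) tail or only a short one, unlike the other mitochondrial messages. The 525 nt annotated for it, called the message below, hold 7.05% cytosine and 35.6% guanine, so that it offers few sites to this assay.

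The files number the mitochondrial chromosome as hg19 does, and the mitochondrial sequence of GRCh37 is numbered differently. To find the gene at each site, the pattern of cytosines on both strands was matched to GRCh37. With a constant shift over each of 4 blocks, chosen for the best match, 1283 of 1293 minus-strand positions of MCF10A and 1108 of 1117 of MDA-MB-468, at any coverage, fell on a cytosine. Positions below are those of the files (hg19, mitochondrial chromosome, minus strand). The covered ND6 sites ran from 14161 to 14664, all inside the coding sequence, which has no intron. All 37 cytosines of the 525 nt ND6 message were present in the files, 31 of them at the coverage minimum in MCF10A versus 37 in MDA-MB-468. One further position counted in ND6 by both files, 14581, did not fall on a cytosine of GRCh37. The 30 nt stretches below, from the GENCODE release 44 ND6 transcript on GRCh37, show the stretch with most covered cytosines, the one around the site with the highest ratio in MCF10A at a coverage of at least 20, and the 3′ end, which holds the site with the highest coverage summed over both lines. They are written 5′ to 3′ as DNA, and capitals mark cytosines covered in at least 1 line.
ND6 message nt 45 to 74: gtttgtggggttttCttCtaagCCttCtCC
ND6 message nt 296 to 325: aggtaggattggtgCtgtgggtgaaagagt
ND6 message nt 496 to 525: attgtaattgagattgCtCgggggaatagg
The first stretch holds 7 covered cytosines, from 14616 to 14601. The second holds 14365 alone. The third holds 14163 and 14161.

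The libraries summed to 76098976 counts in MCF10A against 90960018 in MDA-MB-468, and the background of unconverted reads was 1.99% and 1.81% over exonic and mitochondrial sites. Each site was tested against that background by Fisher's exact test (one-sided) and called an m5C site at an FDR below 0.05. An m5C call means only that more reads stayed unconverted than the background gives. A site covered by 10 reads needed 4 unconverted ones to be called in each line, and a site covered by 50 needed 6. Of the epithelial markers, KRT5, KRT8, KRT18 and EGFR had covered exonic sites in each line, whereas EPCAM and CDH1 had 0 in MCF10A and 175 and 108 in MDA-MB-468. The leukocyte marker PTPRC had 0 in each line, and COL1A1, a collagen gene of fibroblasts, had 0 in MCF10A against 267 in MDA-MB-468. The part of these in the results was not tested, and PECAM1 was not analysed here.

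In ND6, 12.7% of the reads were unconverted in MCF10A (241 of 1893 counts, 95% Wilson interval 11.3% to 14.3%) and 12.2% in MDA-MB-468 (372 of 3043, 11.1% to 13.4%). The rest of the strand was at 19.6% in MCF10A (11071 of 56495 counts, 19.3% to 19.9%) and 16.1% in MDA-MB-468 (8842 of 54919, 15.8% to 16.4%). Medians over sites gave a different order, with 15.9% in ND6 and 12.3% outside it in MCF10A, and 14.3% and 12.8% in MDA-MB-468. The pooled value outside ND6 thus depended on a minority of highly unconverted sites, and without the sites opposite the 16S rRNA it was 14.5% and 12.0%. No test of ND6 against the rest was made, because neighboring cytosines share reads. The intervals cover counting error only and are too narrow for the same reason.

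Of the ND6 sites, 21 of 32 were m5C sites in MCF10A (65.6%, 95% Wilson interval 48.3% to 79.6%) and 31 of 38 in MDA-MB-468 (81.6%, 66.6% to 90.8%). Outside ND6 these were 505 of 1077 (46.9%, 43.9% to 49.9%) and 414 of 841 (49.2%, 45.9% to 52.6%). Over all kept sites of the library, 0.96% were called in MCF10A versus 0.84% in MDA-MB-468, and over the nuclear sites 0.851% and 0.742%. Both groups lay far above these shares. Median coverage was 58.5 and 78 reads in ND6, 41 in each line outside it, and 18 over all kept sites. Deeper sites can be called at lower ratios, and the part of depth in these shares was not tested. With a ratio of at least 0.2 required as well, 11 of 32 and 14 of 38 ND6 sites stayed called. On the rest of the strand these were 362 of 1077 and 353 of 841, so the higher called share of ND6 depended on sites with lower ratios. The share over all kept sites with that ratio required is not given here. Over the whole minus strand 47.4% and 50.6% were called. On the plus strand of the same chromosome, 62.1% and 49.1% of sites were called. All 21 ND6 sites called in MCF10A were called in MDA-MB-468 too, 100% of the first list and 67.7% of the second. Outside ND6, 326 sites were called in both lines, 64.6% of the MCF10A calls and 78.7% of the MDA-MB-468 calls. A call at a site below the coverage minimum in the other line counts here as not shared. Only 32 sites in ND6 and 810 outside it were covered in both lines. No such overlap over all kept sites is given here. When the minus strand itself served as the background, 1 ND6 site remained above it in MCF10A against 2 in MDA-MB-468.

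The ND6 ratios were set against position along the message, which was divided into 3 segments of equal length. In the 5′ segment, 19.5% of the reads were unconverted in MCF10A (75 of 384 counts) and 27.3% in MDA-MB-468 (119 of 436). The middle segment gave 16.8% (119 of 707) and 13.3% (119 of 897). The 3′ segment was lowest in each line, with 5.86% (47 of 802) and 7.84% (134 of 1710). Coverage was lowest in the 5′ segment. From the 5′ to the 3′ segment its median was 22, 62 and 56 reads in MCF10A, and 17, 77.5 and 128 in MDA-MB-468.

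The change in coverage was mostly a change in converted reads, except from the middle to the 3′ segment in MCF10A. In MDA-MB-468 the median number of converted reads per site was 9, 69 and 118 from the 5′ to the 3′ segment, while that of unconverted reads was 8, 9.5 and 10. In MCF10A the converted reads were 14, 50.5 and 56, and the unconverted reads 8, 10.5 and 3. From the middle to the 3′ segment of that line, the unconverted reads fell while the converted reads rose slightly. Over the whole message the unconverted reads ranged from 0 to 17 per site in MCF10A and from 0 to 21 in MDA-MB-468, and the converted reads from 7 to 157 and from 3 to 234. The part that depth plays in the ratio was not tested.

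**Figure D1:**
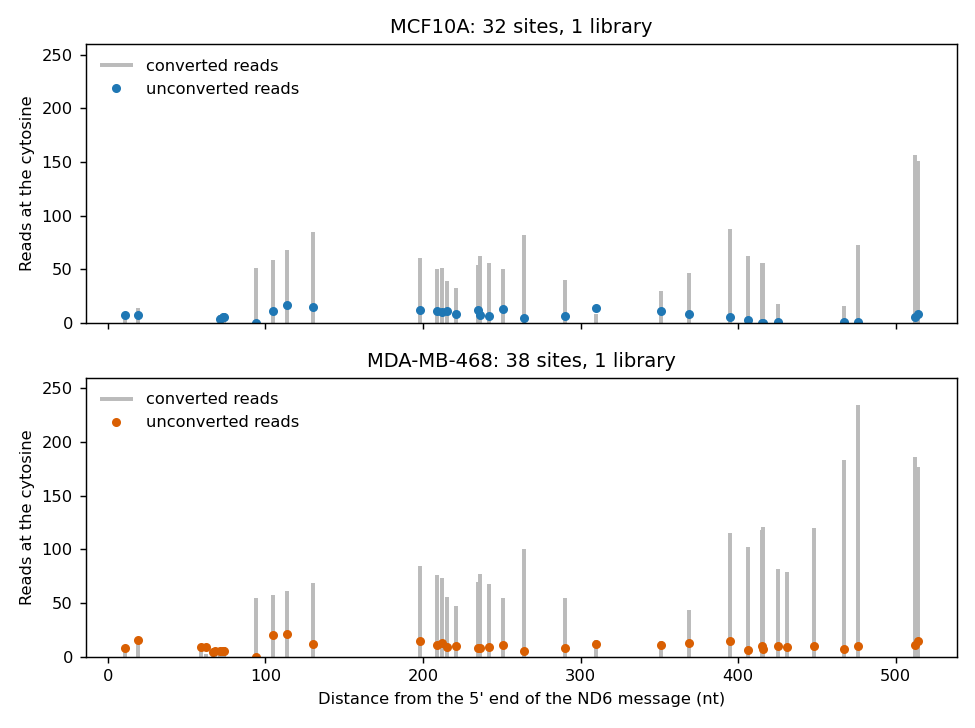
Reads at each covered ND6 cytosine against distance from the 5′ end of the message in nt, for MCF10A (upper panel, 32 sites) and MDA-MB-468 (lower panel, 38 sites). Grey bars are converted reads and points unconverted reads, 1 library per line; the bars grow to 157 and 234 while no point lies above 21.

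The highest ratio in ND6 at a coverage of at least 20 was at 14365 in MCF10A, where 14 of 23 reads were unconverted (60.9%, 95% Wilson interval 40.8% to 77.8%). In MDA-MB-468 the same site had 12 of 28 (42.9%, 26.5% to 60.9%). The highest there was 14656, at nt 19 of the message, with 16 of 30 reads (53.3%, 36.1% to 69.8%) against 8 of 22 in MCF10A (36.4%, 19.7% to 57.1%). Position 14324 followed in each line, with 11 of 41 reads (26.8%) in MCF10A versus 11 of 26 (42.3%) in MDA-MB-468. Next in MCF10A, 14460 had 11 of 50 reads unconverted against 9 of 65 in MDA-MB-468, and 14454 had 9 of 42 against 10 of 57. The first 3 of these sites had few reads compared with the median coverage of 58.5 and 78 in ND6. Their intervals overlapped between lines.

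Among ND6 sites called in MCF10A, those with the highest coverage lay in the 5′ and middle segments. Position 14545 had 15 of 100 reads unconverted in MCF10A (15.0%, FDR 4.0e-07) and 12 of 81 in MDA-MB-468 (14.8%). Position 14561 had 17 of 85 (20%) and 21 of 82 (25.6%). Its neighbor 14570 had 11 of 70 (15.7%) and 20 of 78 (25.6%), and 14477 had 12 of 73 (16.4%) and 15 of 100 (15.0%). The ratios of these 4 sites lay between 14.8% and 25.6% in each line. At 14439 they were lower, with 8 of 71 reads (11.3%) in MCF10A against 8 of 85 (9.41%) in MDA-MB-468.

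In MDA-MB-468 the called sites with the highest coverage lay mostly in the 3′ segment. Position 14161, in the stretch at nt 496 to 525, had 15 of 192 reads unconverted (7.81%, FDR 0.00053), against 9 of 160 in MCF10A (5.63%). Position 14280 had 15 of 130 (11.5%) against 6 of 94 (6.38%), and 14260 had 10 of 128 (7.81%) against 0 of 56. The adjacent 14259 was also at 0 of 56 in MCF10A, which allows a ratio of up to 5.36% at each. In MDA-MB-468 it had 7 of 128 reads (5.47%). Position 14227 had 10 of 130 reads (7.69%) in MDA-MB-468 and did not reach the coverage minimum in MCF10A.

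Position 14581 stood apart from its neighbors. It had 0 unconverted of 51 reads in MCF10A versus 0 of 55 in MDA-MB-468, while 14570, the next covered site, was at 15.7% and 25.6%. This is the ND6 position at which GRCh37 has no cytosine, and whether these lines have one there was not tested. If they do, the reads allow ratios of up to 5.88% and 5.45%. Without 14581 the ratio of ND6 was 13.1% in MCF10A against 12.4% in MDA-MB-468.

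The 7 cytosines of the stretch at nt 45 to 74 were thinly covered. In MCF10A, 14601 and 14602 had 6 of 13 reads unconverted each (46.2%) and 14604 had 4 of 12 (33.3%), and the other cytosines of the stretch did not reach the minimum. In MDA-MB-468, 14601 and 14602 had 5 of 14 reads each (35.7%) and 14604 had 5 of 13 (38.5%). Upstream of them in the message, 14613 had 9 of 12 reads (75%) and 14616 had 9 of 17 (52.9%). These are the highest ratios of the message in MDA-MB-468 together with 14656, at a coverage where 1 read changes the ratio by several percentage points.

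**Figure D2:**
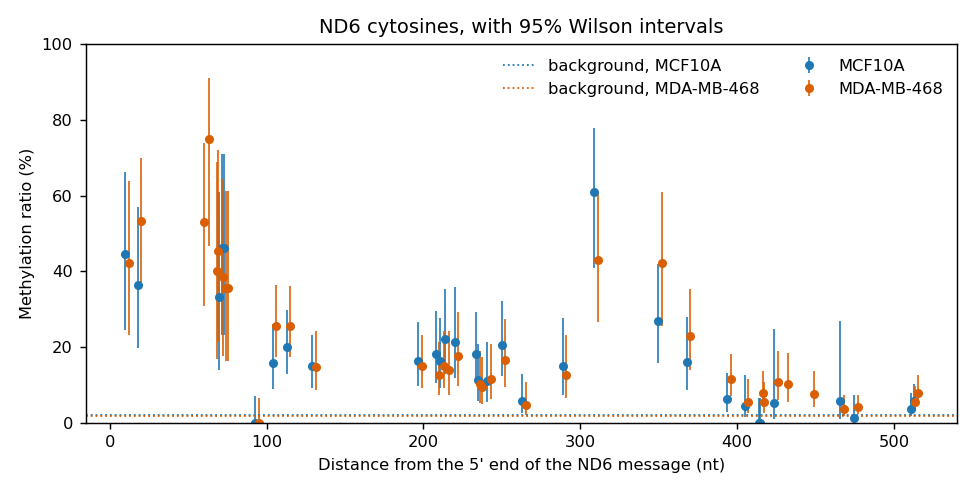
Methylation ratio in % of each covered ND6 cytosine against distance from the 5′ end of the message in nt, with 95% Wilson intervals that cover counting error only, and the background of each library as a dotted line. Pooled ratios fall from 19.5% and 27.3% in the 5′ segment to 5.86% and 7.84% in the 3′ segment, with a high point of 60.9% in MCF10A at nt 310.

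Between the libraries, 0 of 32 shared ND6 sites differed, against 0.0893% of all sites kept in both lines. Each of the 812729 sites kept in both lines was tested with Fisher's exact test (two-sided), which compares these libraries and not the conditions. It gave an FDR of 1 at all 32 shared ND6 sites. Of these, 1 had an unadjusted p below 0.05, the site 14260 (exact test, p = 0.0333). The ratio was higher in MDA-MB-468 at 15 of the 32, lower at 16 and equal at 1, with a median difference of -0.09 percentage points. Across the 32 sites, which share reads with their neighbors and a coverage that is lowest in the 5′ segment, Pearson's r of the ratios between lines was 0.881 and Spearman's rho 0.892. The largest differences at a coverage of at least 20 were 18.0 percentage points lower in MDA-MB-468 at 14365 and 17.0 higher at 14656, and at this depth neither was detectable as a difference.

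Outside ND6, 38 of 810 shared sites differed (4.69%, against 0.0893% of all sites kept in both lines). All 38 were higher in MDA-MB-468. Of the 726 differing sites of the whole series, 164 were higher in that line (0.0202% of all sites) and 562 lower (0.0691%). The 38 sites lay opposite 6 genes: 13 opposite CO3 (a subunit of cytochrome c oxidase), 10 opposite ND4 and 2 opposite ND3 (subunits of complex I), 7 opposite the tRNA gene TL2, 4 opposite TS2 and 2 opposite TH. Among sites with 20 or more reads in each line, the ratio differed most at 12294, opposite TL2, with 2 of 38 reads unconverted in MCF10A (5.26%) versus 23 of 35 in MDA-MB-468 (65.7%, exact test, FDR 9.1e-05). Its neighbor 12295 had 3 of 38 and 22 of 33, and 12319 had 1 of 44 and 23 of 39. Opposite TS2, 12245 had 9 of 118 (7.63%) and 45 of 69 (65.2%, exact test, FDR 5.7e-13), and 12237 had 4 of 80 and 17 of 27. These 5 sites lie within a short stretch and are not independent.

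The reads behind these differences were of different kinds. Opposite CO3 the median number of converted reads per shared site was 52 in MCF10A versus 9 in MDA-MB-468, with 28 and 18 unconverted reads. Opposite ND4 the converted reads were 44.5 and 13 and the unconverted reads 11 and 12. Opposite TL2 unconverted reads went from 2 in MCF10A to 22 in MDA-MB-468 and converted reads from 43 to 18, and opposite TS2 from 2 to 9 and from 78 to 20. In these stretches fewer converted reads were found in MDA-MB-468. The counts over all kept sites were 60580227 in MCF10A against 42429746 in MDA-MB-468, the reverse of the order of the deposited totals, and the part of depth was not tested.

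Along the strand, the ratio changed from gene to gene. Opposite the 16S rRNA, which the gene RNR2 encodes, 99.4% of the reads were unconverted in MCF10A (3369 of 3389 counts, 114 sites) and 99.5% in MDA-MB-468 (2555 of 2569, 91 sites). The median ratio there was 100% in each line, 97 and 80 of the sites had no converted read, and every site was called. The median coverage was 18 and 19, of which converted reads had a median of 0. Opposite the 12S rRNA, 4 sites of MCF10A had 40 unconverted reads and no converted read, and none reached the minimum in MDA-MB-468.

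The control region gave the opposite picture. At the minus-strand sites without a gene on either strand, all in that region, 4.08% of the reads were unconverted in MCF10A (184 of 4510, 107 sites) and 2.10% in MDA-MB-468 (326 of 15503, 128 sites), and 2 and 1 sites were called. Median coverage was 39 and 95 reads. The library backgrounds were 1.99% and 1.81%.

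Opposite the complex I messages, ND5 stood out by its coverage. This gene adjoins ND6, so that RNA reaching past the annotated 3′ end of ND6 continues opposite it. Its 189 sites in MCF10A against 179 in MDA-MB-468 had a median coverage of 88 and 93 reads, above ND6 itself, and a ratio of 5.09% (967 of 18996 counts) and 4.31% (874 of 20270). Of them 27 and 29 were called, and the called sites with the highest coverage were 13981 in MCF10A (14 of 190 reads, 7.37%) and 14041 in MDA-MB-468 (12 of 202, 5.94%). Of all minus-strand counts, 58388 in MCF10A against 57962 in MDA-MB-468, ND6 held 3.24% and 5.25%.

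Opposite ND4 the ratio was 24.5% in MCF10A (112 sites) and 52.6% in MDA-MB-468 (91 sites), and opposite ND1 23.2% (81 sites) and 55.1% (31 sites). Opposite ND3 it was 12.6% and 30.4%, and opposite ND4L 8.05% and 20.7%. Opposite ND2 it was 8.00% at 30 sites in MCF10A and 13.5% at 5 sites in MDA-MB-468. Only some of these sites were shared, and the count of differing sites above rests on those alone. At the 31 shared sites opposite ND1 the ratio was 31.6% in MCF10A versus 55.1% in MDA-MB-468.

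Opposite the messages of cytochrome c oxidase, ratios were high. CO1 gave 69.5% at 51 sites in MCF10A and 97.4% at 11 sites in MDA-MB-468, CO2 57.7% at 44 sites and 96.0% at 13 sites, and CO3 33.5% at 55 sites and 71.9% at 49 sites. These site sets differ between lines. At the 11 sites of CO1 covered in both lines the ratio was 94.5% in MCF10A versus 97.4% in MDA-MB-468, at the 13 of CO2 70.7% and 96.0%, and at the 49 of CO3 33.8% and 71.9%. In MCF10A 4 of the 5 called sites outside ND6 with the highest coverage lay opposite CO3, among them 9839 with 48 of 181 reads unconverted (26.5%, 95% Wilson interval 20.6% to 33.4%) and the adjacent 9838 with 44 of 179 (24.6%, 18.8% to 31.4%). Opposite ATP6, a subunit of ATP synthase, the ratio was 18.5% at 31 sites in MCF10A and 66.9% at 10 in MDA-MB-468, and at those 10 sites it was 27.2% in MCF10A. Opposite CYB, the mitochondrial subunit of complex III, it was lower, with 11.6% at 130 sites and 7.97% at 134 sites.

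**Figure D3:**
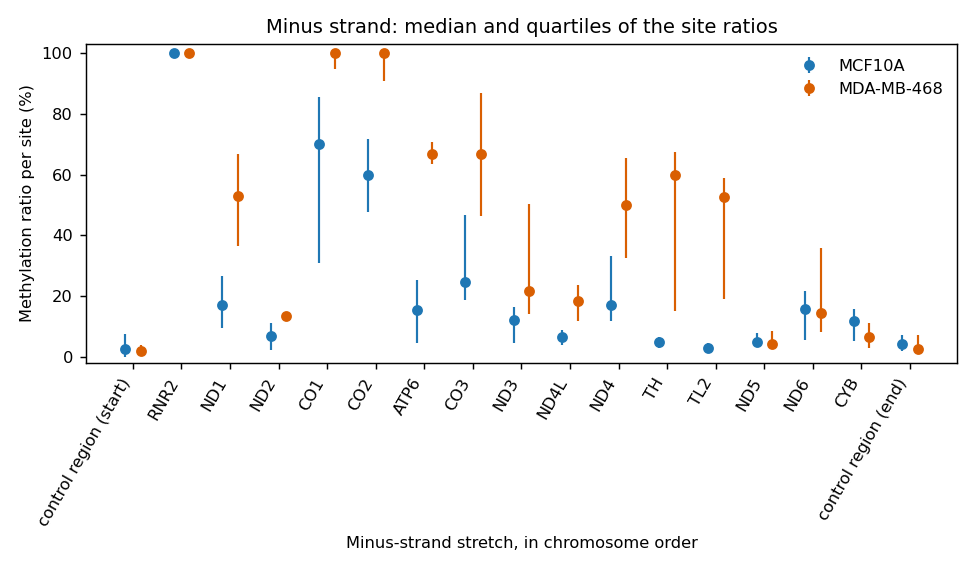
Median methylation ratio in % per minus-strand stretch, in chromosome order and named by the gene at that place, with bars from the first to the third quartile of the sites; stretches with under 5 sites in a line are not drawn for that line. Sites opposite RNR2 lie at 100% in each line and the control region below 5%, with ND6 at 15.9% and 14.3% between them.

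Of the 8 tRNA genes coded on the minus strand, 3 had covered cytosines. In MCF10A TC had 3 sites with 27 of 33 reads unconverted, TY 7 sites with 61 of 88, and TE, next to ND6, 3 sites with 16 of 35. In MDA-MB-468 TE had 3 sites with 20 of 32 reads unconverted, and the other 7 genes had none. Every one of the 13 sites of MCF10A was called, as were the 3 of MDA-MB-468, at a median coverage of 11 and 10. The genes TQ, TA, TN, TS1 and TP had no site at the minimum in either line. Opposite tRNA genes of the plus strand, 0 of 47 sites were called in MCF10A (95% Wilson interval up to 7.56%) and 25 of 36 in MDA-MB-468 (69.4%, 53.1% to 82.0%).

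Both strands were then set side by side. The minus strand held 25.1% of the mitochondrial counts in MCF10A versus 15.6% in MDA-MB-468, but 34.5% and 36.8% of the unconverted ones. At ND6 its own strand had a mean of 7.53 unconverted and 51.6 converted reads per site in MCF10A, and the opposite plus strand 16.1 and 2.06 over 78 sites. In MDA-MB-468 these were 9.79 and 70.3 on the coding strand, and 19.9 and 2.79 on the opposite strand over 67 sites. The ratio on that opposite strand was 88.6% in MCF10A against 87.7% in MDA-MB-468. At RNR2, which is coded on the plus strand, the order was turned around, with 29.6 unconverted and 0.175 converted reads on the minus strand in MCF10A against 13.3 and 116 on the plus strand.

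Over the 15 stretches with at least 10 sites on each strand in MCF10A, the mean unconverted reads per site on the minus strand were 0.131 to 2.57 times those on the plus strand, with a median of 0.731, after adding 0.1 to each mean. The converted reads spanned 0.00238 to 26.9 times. In MDA-MB-468, with 14 stretches, the unconverted reads spanned 0.0928 to 3.74 times with a median of 0.863, and the converted reads 0.000577 to 28.6 times. Of these stretches 8 in each line were within 2-fold between strands for unconverted reads, against 5 and 4 for converted reads. Only sites with 10 or more reads enter, so unconverted reads could not be few where converted reads were near 0. The spreads are thus not on equal terms, and nothing is concluded from the contrast. Whether the unconverted reads came from RNA or from mitochondrial DNA was not tested.

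**Figure D4:**
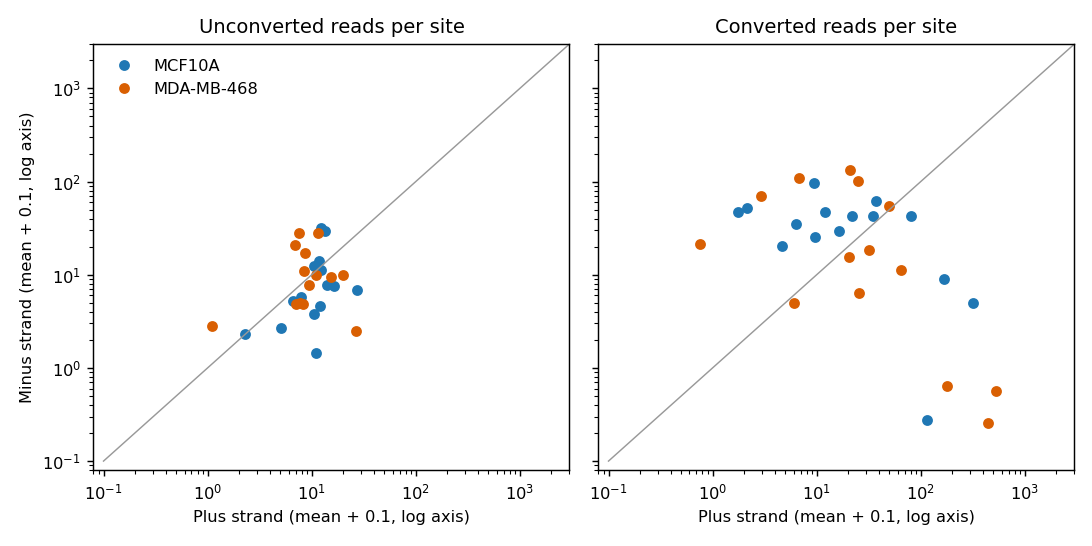
Mean reads per site on the minus strand against the plus strand, for each stretch with at least 10 sites on each strand (15 in MCF10A, 14 in MDA-MB-468), with 0.1 added and log axes, unconverted reads on the left and converted reads on the right. The line marks equal values. Over both lines, unconverted reads on the minus strand spread from 0.0928 to 3.74 times those on the plus strand, and converted reads from 0.000577 to 28.6 times. The minimum of 10 reads per site keeps unconverted reads up where converted reads are few.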

How the data were processed

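For each library the authors deposited a table of raw counts, unconverted and converted, at every cytosine with 5 or more reads. Per the methods, reads were trimmed with Trim Galore and aligned by MeRanTK with hg19 as the reference. The labels also name Bismark, and versions are not given in the sources used here. Kept were sites with 10 or more reads that lay in exons on their own strand (GENCODE release 44, basic set) or on the mitochondrial chromosome, 1584002 and 1271253 sites for MCF10A and MDA-MB-468, at a median of 18 reads. The filter on predicted RNA structure that the methods describe was not applied. Fisher's exact tests were adjusted by Benjamini-Hochberg over all kept sites (one-sided, against the summed counts) or over the sites shared by the lines (two-sided), at an FDR of 0.05. Wilson intervals are at 95% and cover counting error only, since reads without molecular identifiers are not independent molecules. A ratio of 0 is given with the limit that 3 counts allow.

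Genes were assigned by the match to GRCh37. ND6 sites were named where they were among the 5 called sites of highest coverage or the 5 of highest ratio at 20 or more reads in a line, or among the 5 largest differences between lines. Outside ND6 the called sites of highest coverage and the largest differences were eligible, and some are not printed. The sites at 0, 14581 and those of the printed stretches were named after their values were seen. The members, the rule and the stretches were chosen with earlier results of these data known. Alternatives covered coverage, background, test, site set and the way of averaging. The code was tested on simulated counts. It used matplotlib 3.10.9, numba 0.67.0, pandas 2.3.3, scipy 1.17.1 and numpy 2.4.6 in Python 3.11.15.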

Additional observations from a re-analysis of the deposited data

Results flagged for a closer look

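Of 12 mitochondrial genes with at least 10 sites on each strand in each line, 5 had a higher ratio of summed counts on the minus strand in one line and on the plus strand in the other. The difference between lines was not tested, since each has 1 library. The minus-strand ratio less the plus-strand ratio was -35.9 percentage points at ND1 in MCF10A against 28.35 in MDA-MB-468. It was -10.58 at ND4 in MCF10A versus 23.0 in MDA-MB-468, and -54.0 at ATP6 in MCF10A against 2.35 in MDA-MB-468. At ND4L it was -14.9 and 0.211. At CYB it was 2.83 in MCF10A versus -4.59 in MDA-MB-468. By the median of the site ratios, the order turned between lines at ND1 and ND4 and, outside these 5 genes, at CO3. At CO3 the minus strand was at 24.6% against 42.3% in MCF10A, and at 66.7% against 12.5% in MDA-MB-468. The minus strand was the lower one in each line at CYB (11.7% against 20.9% in MCF10A, 6.61% against 21.4% in MDA-MB-468), ATP6 (15.4% against 92.9%, 66.7% against 92.0%) and ND4L (6.67% against 27.0%, 18.5% against 22.9%). In MDA-MB-468 the Wilson intervals of the strands overlapped at ND4L (17.6% to 24.1% and 18.8% to 22.3%) and at ATP6 (59.0% to 74.0% and 61.0% to 67.9%).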

How the results depend on the processing

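With the minus strand itself as the background, 1 ND6 site of MCF10A was called, 2 of MDA-MB-468, and 219 and 237 sites outside ND6, because the strand's own ratio is far above that of the library. A methylation ratio of at least 0.2 in addition left 11 and 14 called ND6 sites, and 362 and 353 outside ND6. The share over all kept sites under that rule is not given here. As the median of the site ratios, ND6 gave 15.9% and 14.3% and the rest of the strand 12.3% and 12.8%. With a coverage of at least 20, ND6 was at 11.0% in MDA-MB-468 and the rest at 17.8% in MCF10A against 14.1% in MDA-MB-468, and with at least 5 the rest was at 20.2% and 17.5%. Sites covered in both lines gave 18.9% for the rest of the strand in MCF10A. Without the sites opposite the 16S rRNA, a choice made after seeing the data, the rest was at 14.5% and 12.0%. The minus-strand share of the mitochondrial counts in MDA-MB-468 was 15.8% and 15.2% with coverages of at least 5 and 20, also chosen later. No ND6 site differed between the libraries under the other coverage minimums, with all deposited sites or with a ratio difference of at least 0.1 in addition, and 38 to 42 others did. No paired analysis was possible because each line has 1 library. A site with 20 reads needed 5 unconverted ones in MCF10A versus 4 in MDA-MB-468 to be called, so ratios under 25% and 20% were not detectable at that depth.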
